A study of Drosophila melanogaster with 6 samples.

Results

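The genes Arc1, Arc2, Hr38 and sr are the activity-regulated Arc paralogues and nuclear factors of Drosophila melanogaster, and they were read by 6 probe sets, among 18769 tested probe sets and 11982 genes on the array. They were chosen by name, with earlier results of the same comparison known, in which the signal of Arc1 stood out. Their differences between the groups are therefore given as a description, with no test. Arc1 and Hr38 had 2 probe sets each, and Arc2 and sr had 1 each.

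The tested flies came from a cross of da-GAL4 to a UAS-AMP stock (titled GAL4xUAS), and the control flies were of that UAS-AMP stock, not crossed (titled UAS). The GAL4 driver takes the promoter of daughterless, a widely expressed gene, and switches on the UAS transgene, which encodes an antimicrobial peptide that the labels do not name. Both groups carried the UAS-AMP transgene, and the cross differed by the driver and by the chromosomes that came with it. The cross had the UAS-AMP stock as 1 parent only, so the number of transgene copies may differ as well. Flies with the driver alone were not analysed here. Each group had 3 samples of total RNA from pools of whole adults (25 males with 25 females), read on 1 Affymetrix Drosophila Genome 2.0 array per sample. The labels give no age, and they do not state that replicates were grown separately. The p-values thus cover only the spread among these samples, part of which may be technical.

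Arc proteins descend from the Gag protein of Ty3/gypsy retrotransposons and assemble into capsids. In fly larvae Arc1 capsids carry Arc1 mRNA from motor neurons to muscle inside extracellular vesicles, and Arc1 is also known for roles in metabolism and starvation behaviour. Hr38 is the only fly member of the NR4A nuclear receptors, and sr encodes a zinc finger factor of the EGR family that also sets the fate of tendon cells. Transcripts of Hr38 and sr rise when neurons fire, so both serve as markers of recent neuronal activity in insect brains.

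The arrays shared a common scale, with median signals of 767.4 to 902.8 in the cross and 847.1 to 864.5 in the UAS line. The number of arrays, 6, limits the precision. The upper range of 27 control probe sets for Bacillus genes, at 90.3 to 123 across the arrays, was taken as a guide to background. All 6 probe sets of the 4 genes lay above it on every array. Markers of the tissues of whole flies were present: 22 of 22 neuronal, 9 of 9 glial, 14 of 14 egg and yolk, 12 of 12 testis and accessory gland, and 12 of 13 muscle and fat body genes lay above background on every array. In RNA from whole flies, fewer cells of a type and less RNA per cell cannot be told apart.

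Arc1 was higher in the cross by both of its probe sets, whereas the groups overlapped for the neighbouring paralogue Arc2 and the factors Hr38 and sr. By the probe set that stands for the gene, the signals of Arc1 were 39399, 46434.4 and 39355.2 in the cross, against 13062.9, 10724.9 and 11912.2 in the UAS line. The groups did not overlap, and the lowest array of the cross was 3.01 times the highest array of the UAS line. The mean signals were 41730 ± 4075 in the cross and 11900 ± 1169 in the UAS line (SD, n = 3 each), a difference of 1.81 ± 0.15 (SE) on the log2(signal + 1) scale, or 3.51-fold.

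The second Arc1 probe set, whose suffix marks it as able to read several transcripts, gave 14959.8, 22579.7 and 18113.8 in the cross, against 7045.6, 4869.8 and 6835 in the UAS line. Here too every array of the cross lay above every array of the UAS line, by at least 2.12 times. The means were 18551 ± 3829 in the cross and 6250 ± 1200 in the UAS line (SD, n = 3 each), a log2 difference of 1.57 ± 0.23 (SE), or 2.97-fold. Both Arc1 probe sets were highest in replicate 2 of the cross and lowest in replicate 2 of the UAS line. Non-overlap of this kind, with the cross higher, occurred in 5.76% of all tested probe sets (1082), and with the cross lower in 12.8% (2396). Since Arc1 was chosen on this comparison, nothing further is read from its count.

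**Figure D1:**
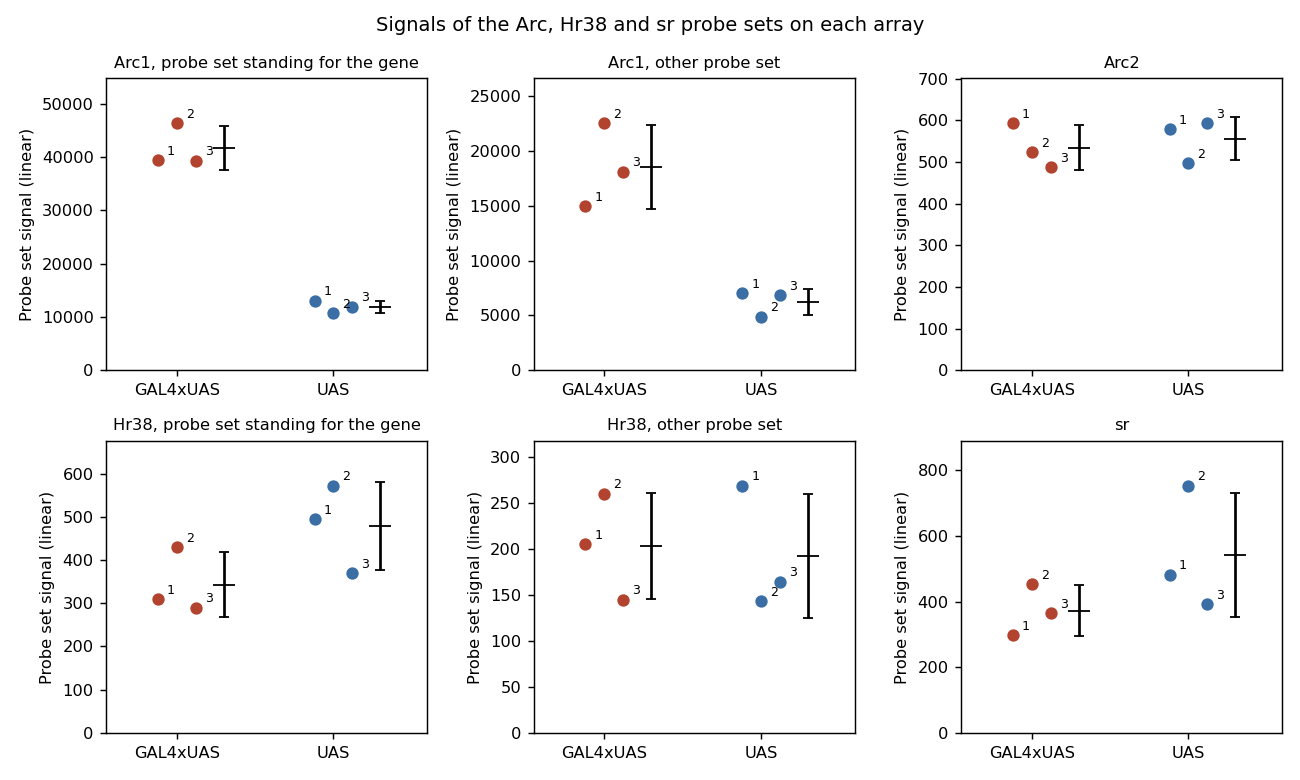
Linear probe set signal of each array for the 6 probe sets of Arc1, Arc2, Hr38 and sr, with the GAL4xUAS cross left of the UAS line. Points are arrays numbered by replicate, and the bar beside them gives the mean and SD of 3 arrays. The groups are apart in both Arc1 panels and overlap in the other 4.

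Among all tested probe sets, 92 had a larger log2 difference than the first Arc1 probe set, and 12 of those lay above the background guide on all arrays. The spread between arrays narrowed with signal, so Arc1 is best set beside probe sets of like brightness. Of the 458 probe sets with a mean log2 signal within 0.5 of that of Arc1, none had a larger difference. Of the 1039 within 0.5 of its second probe set, 2 did. Arc1 was already known to stand out in this comparison when it was chosen, so these ranks are a description and no support. The residual SD of the first Arc1 probe set, 0.14 on the log2 scale, was close to the median of 0.15 for probe sets of like signal, and that of the second, 0.30, was wider than its median of 0.14.

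**Figure D2:**
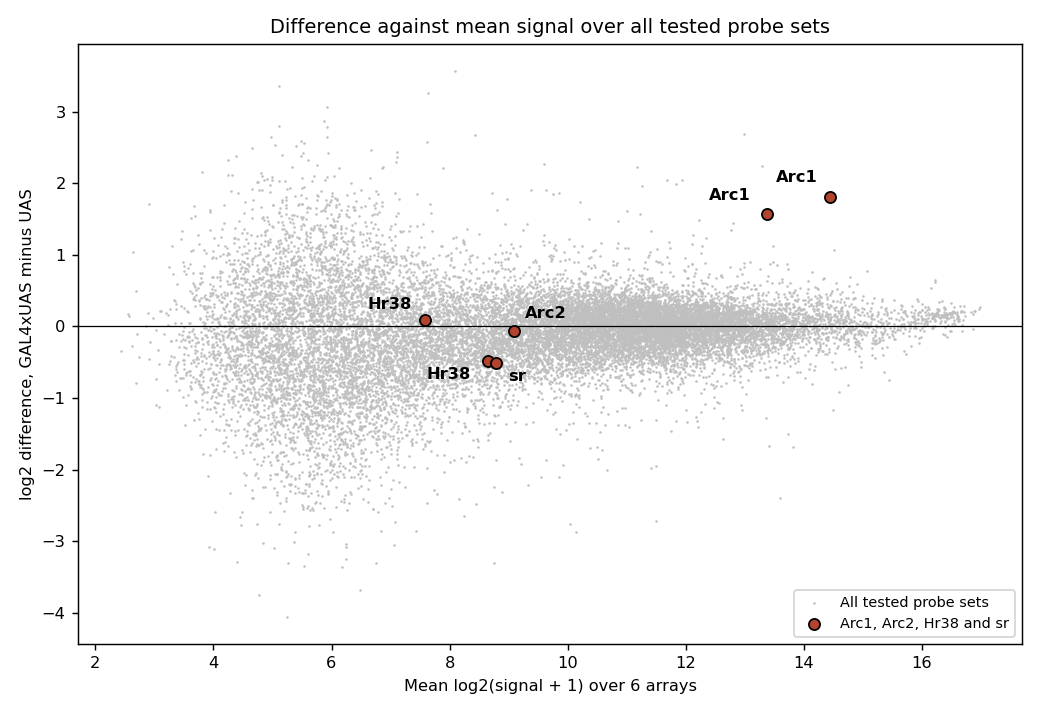
The log2 difference, GAL4xUAS minus UAS, against the mean log2(signal + 1) over 6 arrays for all 18769 tested probe sets (grey) and the 6 probe sets of Arc1, Arc2, Hr38 and sr (red). Both Arc1 points, at 1.81 and 1.57, lie above the band formed by bright probe sets, and the points of Arc2, Hr38 and sr lie within the band of probe sets of their signal.

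Arc2, which also encodes a Gag-derived protein and lies on chromosome arm 2R, as Arc1 does, with only the pseudogene CR10102 between them, had signals of 592.9, 524.1 and 487.1 in the cross, against 578.2, 497 and 593.7 in the UAS line. The groups overlapped over nearly their whole range. The means were 535 ± 53.7 in the cross and 556 ± 51.9 in the UAS line (SD, n = 3 each), and the log2 difference was -0.06 ± 0.15 (SE), with a 95% interval of -0.43 to 0.31. Its sign was not settled, since quantile scaling of the arrays turned it to 0.06. The Arc2 arrays spread little, with a residual SD of 0.14 against a median of 0.31 for probe sets of like signal. The gap between the differences of Arc1 and Arc2 was not tested.

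Hr38 was read by a probe set with signals of 310, 429.8 and 290.1 in the cross, against 494.8, 572.1 and 368.9 in the UAS line. Replicate 2 of the cross lay above replicate 3 of the UAS line, so the groups overlapped. The means were 343 ± 75.6 in the cross and 479 ± 103 in the UAS line (SD, n = 3 each), a log2 difference of -0.48 ± 0.24 (SE) with a 95% interval of -1.09 to 0.13. The second Hr38 probe set gave 205.3, 260.2 and 144.8 in the cross, against 268.8, 143.1 and 164.5 in the UAS line. It overlapped throughout, with a log2 difference of 0.10 ± 0.33 (SE) and a 95% interval of -0.74 to 0.93. The 2 probe sets thus gave opposite signs, and their mean difference was -0.19. The second probe set turned negative without replicate 2 of the cross (-0.10) or without replicate 2 of the UAS line (-0.09).

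The signals of sr were 298.6, 452.8 and 365.7 in the cross, against 482, 753.7 and 391.8 in the UAS line. The highest value was that of replicate 2 of the UAS line, and the groups overlapped between 391.8 and 452.8. The means were 372 ± 77.3 in the cross and 542 ± 188 in the UAS line (SD, n = 3 each), a log2 difference of -0.51 ± 0.30 (SE) with a 95% interval of -1.26 to 0.24. Without replicate 2 of the UAS line the difference was -0.24, and without replicate 3 of that line it was -0.71. Neither Hr38 nor sr changed sign when single arrays were left out or the arrays were rescaled, by the probe set that stands for each gene. Of all tested probe sets, 19.3% had a lower difference than Hr38 and 18.1% a lower one than sr.

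By the Hr38 probe set that stands for the gene, Hr38 and sr had similar profiles over the arrays, and that of Arc1 was far from both. The likeness of 2 genes was measured as the root mean square (RMS) difference of their log2 signals over the 6 arrays, after subtracting each gene's own mean, among 10990 genes with a mean signal above background. By this measure Hr38 ranked 35 among the genes nearest to sr, and sr ranked 187 among those nearest to Hr38, at an RMS difference of 0.17. Arc1 ranked 10793 from Hr38, 10804 from sr and 10592 from Arc2, at 1.17, 1.21 and 0.94. In the other direction, among the genes nearest to Arc1, Arc2 ranked 5713, Hr38 9552 and sr 9830. The second Arc1 probe set was nearer to the first, at 0.19, than any of the 10990 genes. The second Hr38 probe set was far from the first, at 0.46, which would place it at rank 6329 of the 10990, so the likeness of Hr38 to sr holds for 1 of its probe sets.

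The gene nearest to Arc1 was CG17751, at an RMS difference of 0.22, with signals of 8947.2, 7771.7 and 7259.5 in the cross, against 1804.5, 2036.1 and 1962 in the UAS line. CG42254 followed at 0.27 and CG13532 at 0.31, with log2 differences of 1.78 and 1.35. All 3 had every array of the cross above every array of the UAS line, which the measure itself favours. Nearest to Hr38 were kek4, a gene for a membrane protein with leucine-rich repeats (0.063), Gycalpha99B, a subunit of soluble guanylyl cyclase (0.066), and CG9164 (0.069). Nearest to sr were Cyp313a1, a cytochrome P450 gene (0.079), rols, which acts in the fusion of myoblasts (0.087), and firl (0.091). For Arc2, whose arrays hardly differed, the nearest genes were Sry-delta (0.029), Fbxl4 (0.030) and Bx42 (0.033). These are RMS differences on the log2 scale over 6 arrays.

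Neuronal markers were mostly lower in the cross, as were the means of sr and of the Hr38 probe set that stands for the gene. Its summed signal was 95476, 98729 and 89998 in the cross, against 116656, 120128 and 90388 in the UAS line, so the groups overlapped through replicate 3 of the UAS line. In this sum, in Hr38 and in sr, the 3 highest arrays came in the same order: replicates 2 and 1 of the UAS line, then replicate 2 of the cross. That order was looked for after the values were seen, and it held in 1.95% of all genes (234) and in 4 of the 22 neuronal markers taken singly. The mean log2 profile of the list, which gives each gene equal weight, was instead highest on replicate 1 of the UAS line (0.24), then on replicate 2 (0.19). In all, 20 of the 22 were lower in the cross, with a median log2 difference of -0.27, against -0.0020 over all genes, and no marker lay at background. With 1 array left out the median ranged from -0.35 without replicate 3 of the UAS line to -0.21 without replicate 3 of the cross. It was -0.24 with quantile scaling and -0.22 with median centring. Arc1 was higher in the cross while these markers were lower, and the part of neuronal RNA in the values of Hr38 and sr was not tested.

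**Figure D3:**
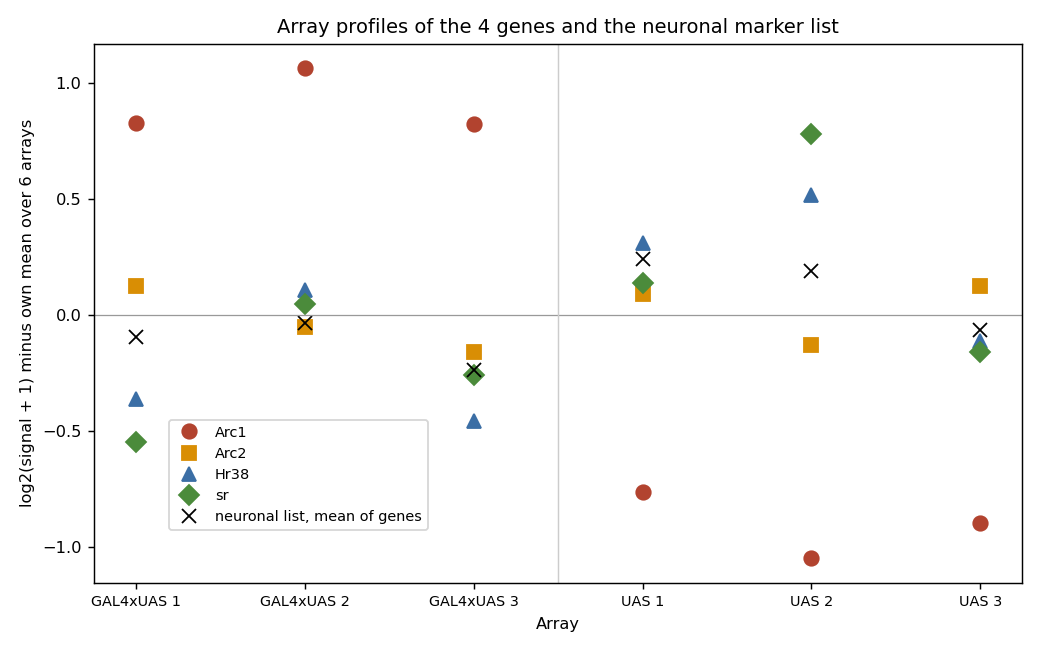
The log2(signal + 1) of each array minus the gene's own mean over 6 arrays, for Arc1, Arc2, Hr38, sr and the mean over 22 neuronal marker genes (crosses), with the GAL4xUAS arrays left of the UAS arrays. Hr38 and sr are highest on UAS replicate 2 and lower on every GAL4xUAS array than on UAS replicates 1 and 2, while Arc1 is high on all GAL4xUAS arrays.

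The genes beside the 3 loci showed whether a difference extended to neighbours on the chromosome. Next to Arc1 lay CG8617, with a log2 difference of 0.14 ± 0.17 (SE), and CG8613, with -0.01 ± 0.13. Beyond Arc2 lay Tfb1, which encodes a subunit of the transcription factor TFIIH, with signals of 3661.8, 3083.7 and 3134.2 in the cross, against 2892.6, 2432.6 and 2839.8 in the UAS line. Its groups did not overlap, but its log2 difference of 0.27 ± 0.15 (SE) did not pass (limma, adjusted p = 0.561). CG34184, the next gene, was at background on all arrays. A difference of the size seen in Arc1 was thus not found in CG8617, CG8613 or Tfb1. Farther out on the side of Tfb1, CG34444, Obp50a and Obp50d lay above background on 1, 3 and 1 of 6 arrays. Little can therefore be read beyond Tfb1.

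Around Hr38, on arm 2L, CG2617 and the centrosome gene Cen had log2 differences of 0.17 ± 0.16 and 0.08 ± 0.18 (SE). On the other side CG9316 had signals of 236.5, 300.7 and 270.6 in the cross, against 131.4, 154.7 and 183.1 in the UAS line, a log2 difference of 0.79 ± 0.18 (SE; limma, adjusted p = 0.247). CarT, a transporter gene of photoreceptors, had 288.4, 245.2 and 260.6 in the cross, against 352.5, 517.3 and 511.5 in the UAS line, a log2 difference of -0.78 ± 0.20 (SE; limma, adjusted p = 0.284). The groups of both were apart, in opposite directions, and neither passed.

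Beside sr, on arm 3R, bard had signals of 33.7, 45.3 and 23.8 in the cross, against 369, 407.3 and 252.5 in the UAS line. All 3 arrays of the cross lay within the background range there, so the signal was at least 3.05-fold lower in the cross. It did not pass in the main test (limma with a constant prior, adjusted p = 0.0762) and passed with a prior that follows the signal (trended limma, adjusted p = 0.0253). The other neighbours were htl, a fibroblast growth factor receptor gene, at -0.17 ± 0.13, CG14316 at -0.06 ± 0.40 and CG14315 at 0.63 ± 0.28 (log2 difference, SE), none of which passed.

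**Figure D4:**
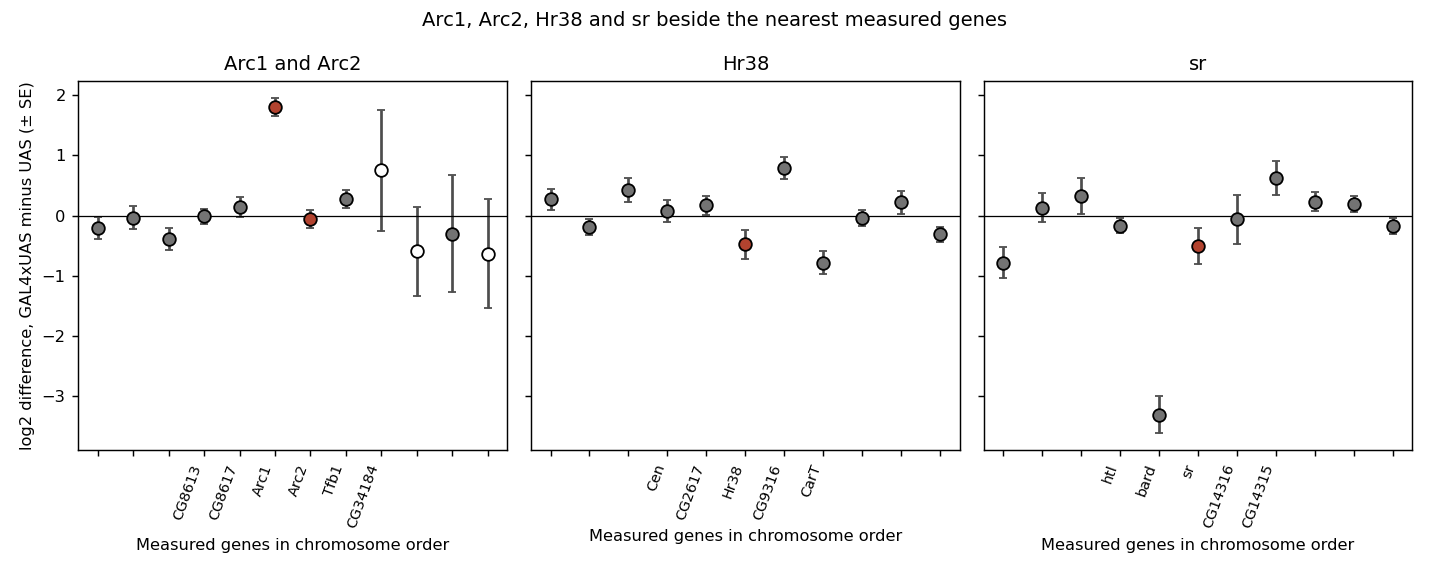
The log2 difference, GAL4xUAS minus UAS, with its SE for Arc1, Arc2, Hr38 and sr (red) and the 5 nearest measured genes on each side in chromosome order (grey), the nearest 2 named. Open points were above background on fewer than 3 of 6 arrays. Arc1 stands apart from its neighbours, and bard, at background in the cross, is the lowest point beside sr.

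Genes of 12 related lists, 155 in all, were read in the same contrast. In limma with a constant prior, 0 of 18769 probe sets (0%) and so 0 list genes passed an adjusted p of 0.05. With the trended prior 147 probe sets passed (0.783%). By the probe set that stands for each gene, 104 of 11982 genes (0.868%) and 2 list genes did. At an unadjusted p under 0.05 there were 18 list genes (11.6%), close to the 10.5% of all genes (1260). Of all genes, 50.2% (6019) were lower in the cross by any amount, which is the background for the counts of higher and lower genes that follow. No list gene had a larger difference than Arc1, which was chosen with its own difference known.

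Other inducible factors and the CREB branch, which switch on activity-dependent genes, had 10 of 15 members measured, 3 higher and 7 lower in the cross, with a median log2 difference of -0.23. Crtc, the coactivator of CREB, had signals of 4151.7, 3925.8 and 3224.8 in the cross, against 5622.8, 5127.5 and 4697.2 in the UAS line. CrebB, the CREB factor itself, had 865.7, 554.3 and 885.7 in the cross, against 1199.8, 1062.4 and 1150.2 in the UAS line. Both thus had groups apart and lower in the cross, with log2 differences of -0.46 and -0.59 (limma, adjusted p = 0.397 and 0.422). In the other direction cbt, a Kruppel-like factor, had 14986.1, 14342.4 and 14414 in the cross, against 11871.2, 10849.5 and 12495.5 in the UAS line, a log2 difference of 0.31 (limma, adjusted p = 0.442). The fly Fos and Jun genes, kay and Jra, chosen for mention after their values were seen, had log2 differences of -0.24 and 0.04.

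Calcium and cAMP signalling genes, which link the membrane to such factors, had 13 of 21 members measured, 3 higher and 10 lower, with a median log2 difference of -0.21. The adenylyl cyclase gene rut had 865.1, 780.4 and 618.4 in the cross, against 1147.3, 1249.8 and 1006.4 in the UAS line, a log2 difference of -0.60 (limma, adjusted p = 0.338). Egfr and the calcineurin gene CanA-14F had -0.36 and -0.56. In both directions 0 passed in the main and the trended fit.

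Among nuclear receptors other than Hr38, 19 of 20 were measured, 7 higher and 12 lower, with a median log2 difference of -0.03 that median centring turned to 0.02. With 1 array left out it ranged from -0.15 without replicate 1 of the cross to 0.0081 without replicate 2 of the cross, and it was -0.11 without replicate 2 of the UAS line. Hr4, a receptor of the ecdysone cascade, had the smallest p, with 128.9, 164 and 132.2 in the cross, against 306.5, 382.5 and 448 in the UAS line. Its log2 difference of -1.40 ± 0.20 (SE) did not pass (limma, adjusted p = 0.135, and 0.109 with the trended prior), but it did when the dimmest 33.3% were omitted (adjusted p = 0.0373). That omission went by the mean log2 signal over both groups, and Hr4 had 7.15 in the cross and 8.55 in the UAS line. Whether Hr4 was kept only through the UAS line was not tested, so this pass is no support. On replicate 3 of the cross its signal, 132.2, lay close to background (123). EcR, the ecdysone receptor, had -0.73 and Eip78C, an ecdysone-induced receptor, -0.56.

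Tendon cell genes and attachment proteins, set beside sr, had 11 of 13 members measured, 2 higher and 9 lower, with a median log2 difference of -0.35. With 1 array left out it ranged from -0.44 without replicate 3 of the UAS line to -0.19 without replicate 2 of that line. It was -0.42 without replicate 2 and -0.23 without replicate 1 of the cross. The talin gene rhea had 6436.2, 7541.4 and 7411.1 in the cross, against 11507.9, 11048.8 and 10213.7 in the UAS line. Its log2 difference was -0.62 ± 0.13 (SE), which passed with the trended prior (limma, adjusted p = 0.0439) and not with the constant prior (0.233) or with the dimmest 33.3% omitted (0.0901). The laminin gene LanA had -0.48 and tx, which encodes a helix-loop-helix factor of tendon cells, -0.35, both with groups apart. The muscle and fat body markers, of 13 measured, had 4 higher and 9 lower and a median of -0.11. That median ranged from -0.29 without replicate 3 to 0.05 without replicate 2 of the UAS line, and was 0.02 without replicate 1 of the cross and -0.03 without replicate 1 of the UAS line. Their summed signal was 380881 to 680938 in the cross and 307215 to 614927 in the UAS line.

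Genes of extracellular vesicles, in which Arc1 capsids leave neurons, were listed with those of retromer and endosomes, and 14 of 16 members were measured. Of these, 8 were higher and 6 lower, with a median log2 difference of 0.02 that lay between -0.02 and 0.01 with 1 array left out. Stam and Hrs, which form the ESCRT-0 complex, had log2 differences of -0.45 and -0.38, and the retromer gene Vps35 had -0.41. For example, Vps35 had 4313.9, 4179.6 and 4417.4 in the cross, against 5398, 6133 and 5597.9 in the UAS line. All 3 had groups apart, and none passed (limma, adjusted p = 0.289, 0.363 and 0.331). The groups were apart and lower in 5 of the 14 genes, against 12.8% of all probe sets, counted over probe sets and not genes. They were so in 5 of 10 synapse growth genes, 4 of 10 inducible factors, 6 of 22 neuronal markers and 0 of 9 glial markers. The share was thus not particular to the vesicle genes.

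**Figure D5:**
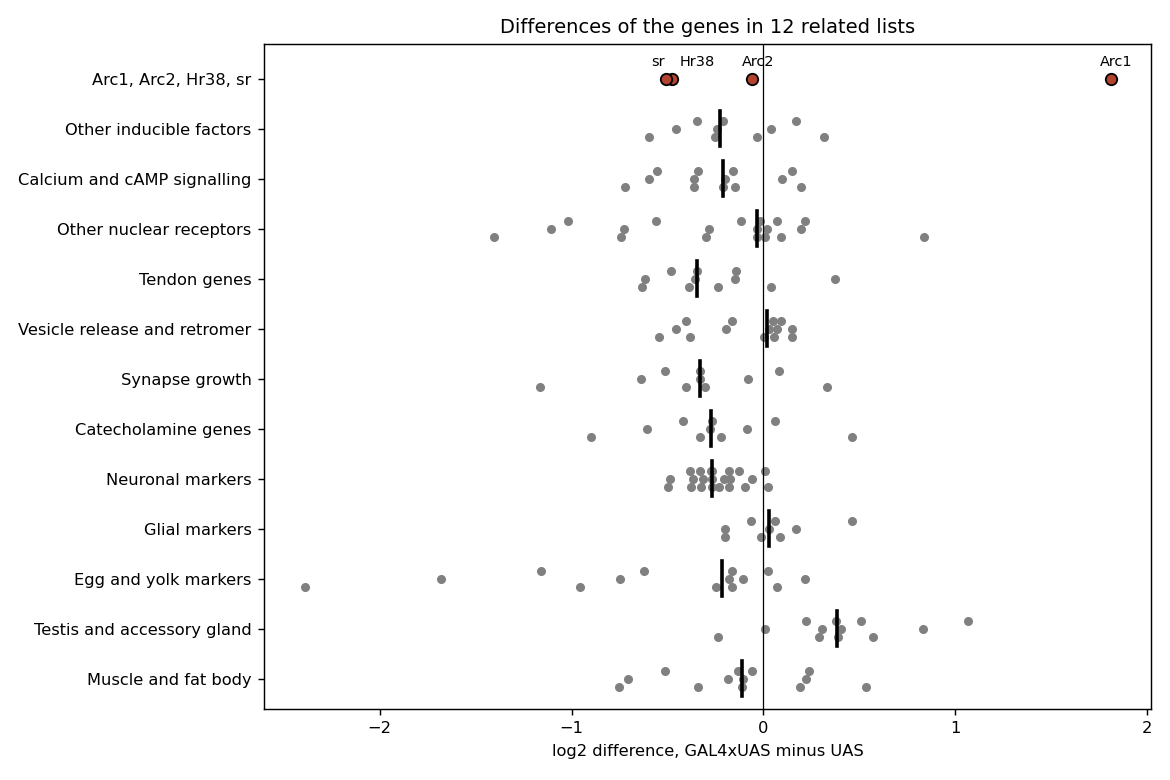
The log2 difference, GAL4xUAS minus UAS, of Arc1, Arc2, Hr38 and sr (red, top row) and of each measured gene in 12 related lists (grey points), with the median of each list as a black line. Arc1, at 1.81, lies to the right of every list gene, and the medians of the lists run from -0.35 to 0.38.

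The genes of synapse growth at the neuromuscular junction had 10 of 15 members measured, 2 higher and 8 lower, with a median log2 difference of -0.33. That median lay between -0.46 and -0.26 with 1 array left out. The glutamate receptor subunit genes GluRIIE and GluRIIB had -0.64 and -1.16, and the BMP receptor gene wit -0.51. On replicate 3 of the cross the GluRIIB signal, 57.1, lay below background (123), so its difference rests in part on a value at the floor. Of 12 catecholamine genes 10 were measured, 2 higher and 8 lower. Their median was -0.28 and lay between -0.35 and -0.19 with 1 array left out. Their smallest p belonged to Vmat, the vesicular monoamine transporter, at -0.27, and Ddc, a target of Hr38 in the cuticle that was chosen for mention after its value was seen, had -0.09. Among neuronal markers fne, Appl and the potassium channel gene Sh had -0.33, -0.49 and -0.37, each with groups apart, and the 9 glial markers had a median of 0.03, which lay between -0.10 and 0.03 with 1 array left out. None of these passed in either fit.

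Markers of both sexes also differed between arrays. The summed signal of 12 testis and accessory gland genes was 204393, 331483 and 199297 in the cross, against 169551, 156936 and 209573 in the UAS line, with 11 of 12 higher and a median log2 difference of 0.38. That median was 0.15 without replicate 2 of the cross. Dup99B, an ejaculatory duct peptide gene, was higher by 1.06 on the log2 scale, which passed with the trended prior (limma, adjusted p = 0.0322) and not with the constant prior (0.214) or with the dimmest 33.3% omitted (0.0752).

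The summed signal of 14 egg and yolk genes was 469151, 416937 and 761941 in the cross, against 735580, 521605 and 622487 in the UAS line, with 11 of 14 lower and a median log2 difference of -0.21. With 1 array left out that median ranged from -0.62 without replicate 3 of the cross to -0.0066 without replicate 2 of the cross, and it was -0.08 without replicate 1, -0.45 without replicate 2 and -0.35 without replicate 3 of the UAS line. The germline gene vas had a log2 difference of -0.62, and the chorion genes Cp18 and Cp16 had -2.39 and -1.68 (limma, adjusted p = 0.280, 0.414 and 0.525). Of Cp18 the signals were 2251.8, 3231.2 and 21901.8 in the cross, against 29711.3, 28476.3 and 27212.1 in the UAS line.

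Both Arc1 probe sets were highest on replicate 2 of the cross, which had the highest male and the lowest egg and yolk sum. They were lowest on replicate 2 of the UAS line, which had the lowest male sum but also the lowest egg and yolk sum of that line (521605). Without the first of these arrays the log2 differences of the Arc1 probe sets were 1.73 and 1.42, and without the second they were 1.74 and 1.40. The male sum of replicate 3 of the UAS line, 209573, lay above those of replicates 1 and 3 of the cross, 204393 and 199297. By the first Arc1 probe set these arrays had 11912.2, against 39399 and 39355.2. The part of male and female RNA in the Arc1 difference was not tested.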

How the data were processed

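Total RNA of 6 samples of whole flies was hybridised to Affymetrix arrays after biotin labelling of 2 ug, per the labels' protocols. The deposited values are probe set intensities on a linear scale, which the authors had brought to 1 level (the mean without the top and bottom 2% was 2500.1 on each array), and the summary software is not given in the sources used here. Of 18952 probe sets, 183 controls were left out, and 13647 had 1 gene symbol, 13544 of them matched to the Release 6 gene table, which was used for names and gene order. The probe set with the highest mean log2 signal stood for a gene. Differences of log2(signal + 1), which understates changes of low signals, came from limma 3.58.1 in R 4.3.3 over all probe sets, with Benjamini-Hochberg adjustment. Background is the 95th percentile of 27 Bacillus probe sets on each array. Where 1 group lay at background, the fold is a lower bound against it.

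The 4 genes and the gene lists were chosen with earlier results of these data known. Named were every probe set of the 4 genes, up to 3 genes of each list with the smallest p, the 2 nearest measured genes on each side, and the 3 nearest by RMS difference. The 12 lists lost 35 entries with no probe set of their own symbol, which were not analysed here. A promoter motif search that had been set out was not run. The fit was tested on simulated data. The alternatives were a pseudocount of 16, median centring, quantile scaling, omission of each array, the replicate number as a block, a trended and robust prior, leaving out the dimmest 33.3%, and averaging probe sets.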

Additional observations from a re-analysis of the deposited data

How the results depend on the processing

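The log2 differences of Arc1, Arc2, Hr38 and sr, with the second probe sets of Arc1 and Hr38, were recomputed in 64 alternative values. All moved by less than the residual SD between arrays, but many of them had to. In groups of this size, leaving out 1 array cannot shift a difference by a full residual SD of the same arrays. The replicate block cannot change a difference, since each replicate number has 1 array of each group. Averaging cannot change Arc2 or sr, which have 1 probe set each. The rescalings, the pseudocount and the averaging for Arc1 and Hr38 could have moved a difference by more, and did not. Over the alternative values Arc1 ranged from 1.69 to 1.88, its second probe set from 1.40 to 1.71, and Arc2 from -0.14 to 0.06. Hr38 ranged from -0.65 to -0.19, its second probe set from -0.10 to 0.36, and sr from -0.71 to -0.24. With 1 array left out, the ranges were 1.73 to 1.88 for Arc1, -0.14 to 0.0073 for Arc2, -0.65 to -0.34 for Hr38 and -0.71 to -0.24 for sr.

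The count of probe sets past the test, 0 in limma with a constant prior and 2070 at an unadjusted p under 0.05, stayed at 0 with each array left out and with each rescaling. It was 147 with the trended prior and 112 of 12512 with the dimmest 33.3% left out, where fewer probe sets were tested. List genes past the test numbered 2 (rhea and Dup99B) and 1 (Hr4) in those fits. The trended count itself, in a check added after seeing the data, was 7 without replicate 1 and 20 without replicate 2 of the UAS line, 225 without replicate 3 of that line, and 11, 103 and 96 without replicates 1, 2 and 3 of the cross, so the calls of bard, rhea and Dup99B rest on a fit that single arrays move. Samples of the 2 groups share replicate numbers, but same-numbered samples did not deviate together (correlations -0.022, 0.00066 and -0.097). The replicate block left the count in limma with a constant prior at 0, with 1747 at an unadjusted p under 0.05. The difference of Arc1 stayed at 1.81, which this block cannot change. The median difference of all probe sets was 0.01 with quantile scaling and -0.04 as deposited. The residual SD between arrays was wider for Hr38 (0.31) and sr (0.40) than for Arc1 and Arc2 (0.14 each). This limits what can be seen in Hr38 and sr. These values are of the probe set that stands for each gene, and the second Arc1 probe set had 0.30. The medians for probe sets of like signal were 0.35 for Hr38 and 0.34 for sr.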
